A study of Homo sapiens with 17 samples.

Results

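The BCL2 family of apoptosis regulators was followed in BEAS-2B, an adherent line of human bronchial epithelial cells, after exposure to acetaldehyde. Its 10 members were taken by gene symbol from a table of 16884 protein-coding genes: the anti-apoptotic BCL2, BCL2L1 and MCL1, the pore-forming effectors BAX and BAK1, and the BH3-only genes BBC3, PMAIP1, BCL2L11, BID and BMF. All 10 were found, and all 10 were among the 12564 genes with enough counts to be tested. Messenger RNA was sequenced from 6 libraries of control cells, 6 of cells given 10 mM and 5 of cells given 16 mM acetaldehyde, all for 24 h and all in the same line. The line was immortalised with the T antigen of simian virus 40, which all 3 groups share.

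BCL2 family proteins decide whether the mitochondrial outer membrane is opened, the step that releases cytochrome c and starts the caspase cascade. BAX and BAK1 form the pores, BCL2, BCL-XL (the main product of BCL2L1) and MCL1 hold them in check, and BH3-only proteins tip the balance, either by activating the effectors directly (BIM from BCL2L11, cleaved BID, PUMA from BBC3) or by occupying the guardians (NOXA from PMAIP1, which binds MCL1, and BMF). In airway epithelium the same machinery governs the loss of cells damaged by smoke, oxidants and reactive aldehydes such as acetaldehyde, which forms from ethanol and is carried in tobacco smoke. Much of the control of these proteins lies after transcription, in cleavage of BID, phosphorylation of BIM and rapid turnover of MCL1, and is outside what messenger RNA can show.

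Library totals lay between 15952673 and 18809241 estimated counts. Library 1 of the 10 mM group differed from all others. Across genes, Pearson's r of its log2 CPM (counts scaled to library size) ranged from 0.840 to 0.866 with libraries 2 to 6 of that dose, and no other pair within a group fell below 0.977. Results on the members are therefore given with and without it. The remaining libraries formed closer sets within each group (control 1-3 and 4-6, 10 mM 2-4 and 5-6, 16 mM 1-3 and 4-5), with r of 0.991 to 0.9954 inside a set and 0.9774 to 0.9888 between sets of a group. The sets also matched across groups: deviations from the group means correlated at r of 0.112 to 0.434 between libraries of control 2-3, 10 mM 2-4 and 16 mM 1-3, and likewise among control 4-6, 10 mM 5-6 and 16 mM 4-5. Between libraries on opposite sides of this division r was -0.46 to -0.112, and control library 1 followed neither side clearly (-0.134 to 0.0413). Deviations from a group mean cancel out within the group, so the negative values follow in part from the positive ones. The 10 mM mean included library 1. The labels name no batch, and nothing in them says that libraries came from separate cultures, so p-values measure the spread between these libraries, which may be technical. Of 7 epithelial markers, KRT8, KRT18 and KRT7 ranged from 180.83 to 3584.25 FPKM over all libraries, while KRT19, KRT5, EPCAM and CDH1 never exceeded 0.12 FPKM. Summed mesenchymal markers ran from 972 to 1628 FPKM in control libraries, from 741 to 1594 in those given 10 mM and from 604 to 821 in those given 16 mM, with FN1 at mean levels of 503, 158 and 133 FPKM and PDGFRB at 12.7, 5.58 and 3.50 in that order of dose. The leukocyte genes PTPRC and CD3E and the endothelial genes PECAM1, VWF and CDH5 stayed at or below 0.07 FPKM. The other leukocyte-list genes were LYZ, at up to 0.65 FPKM, and CD68, which many cells express in lysosomes and which averaged 3.32 FPKM in control, 9.39 at 10 mM and 12.1 at 16 mM. The summed leukocyte list, nearly all CD68, spanned 2.65 to 4.44 FPKM in control libraries, 7.98 to 13.1 in those given 10 mM and 10.1 to 13.4 in those given 16 mM. The part of these markers in the members' results was not tested.

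In control cells MCL1 and BAX were the most abundant members per transcript length, and BMF and BBC3 the least. Fragments per kilobase of transcript, scaled to library depth (FPKM), averaged 146 ± 30.0 (SD, n = 6 for all control values) for MCL1, 142 ± 18.3 for BAX and 86.2 ± 3.99 for BCL2L1. PMAIP1 followed with 40.3 ± 5.74 FPKM, BAK1 with 22.6 ± 1.95, BID with 11.1 ± 0.841 and BCL2L11 with 7.93 ± 0.648. At the low end BCL2 averaged 5.03 ± 1.74 FPKM, BBC3 4.50 ± 0.535 and BMF 4.39 ± 2.52. The libraries of MCL1 and BAX overlapped, as did those of BCL2, BBC3 and BMF with one another; the other neighbours in this order did not overlap. BCL2, the founding member, was far below BCL2L1, a fellow guardian.

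**Figure D1:**
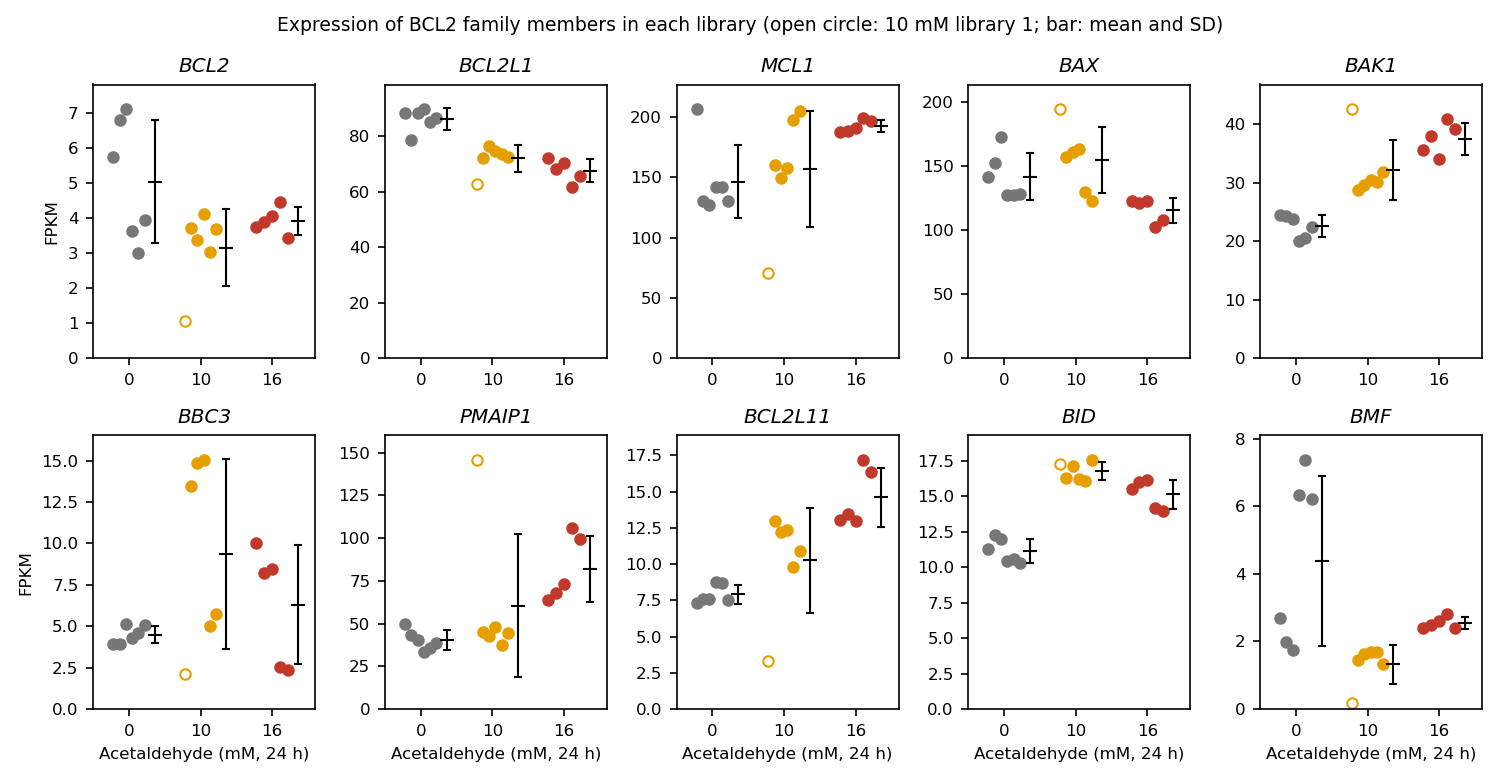
FPKM of each of the 10 members in every library, by acetaldehyde dose (0, 10 and 16 mM, 24 h); each point is 1 library, the open circle is library 1 of the 10 mM group, and the bar beside each group is its mean and SD. BAK1, PMAIP1, BCL2L11 and BID sat above control in all 16 mM libraries, BCL2L1 and BAX below it, and the open circle lies away from its group for most members.

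At 10 mM, 4 of the 10 members were called in edgeR's quasi-likelihood test at an adjusted p under 0.05, against 18.7% of all tested genes. BAK1 and BID were higher (9.41% of all genes were) and BCL2 and BMF lower (9.3%). Leaving out 10 mM library 1 gave 7 calls, against 45.2% of all genes, with 4 higher (22.4%) and 3 lower (22.8%). At 16 mM, 5 members were called, against 35.3% of all genes: MCL1, BAK1, BCL2L11 and BID were higher (17.3%) and BCL2L1 lower (18.1%). Library 1 of the 10 mM group enters this comparison through the shared estimate of spread, and leaving it out gave 9 calls against 65.9% of all genes, with 5 higher (33.7%) and 4 lower (32.2%). BBC3 alone was not called. In FPKM, 4 members did not overlap control at 10 mM, against 15.1% of all genes, with 2 above it (4.55%) and 2 below (10.5%). With library 1 left out there were 5, against 29.1%, with 3 above (14.9%) and 2 below (14.2%). At 16 mM 6 did not overlap, against 46.1%, with 4 above (23.8%) and 2 below (22.3%). These counts use FPKM as deposited. The 2 members below control at 10 mM were BCL2L1 and BMF. Both overlapped control, with or without library 1, once FPKM were divided by the TMM factors, the scaling edgeR uses. When the libraries of each close set were summed before testing, edgeR called 0 members at 10 mM and 3 at 16 mM (BAK1, PMAIP1 and BCL2L11), beside 246 and 3480 of 13465 genes. At 10 mM 5 members had an unadjusted p under 0.05 in that fit, as did 2658 genes (19.7%). With the matched sets as a block and 10 mM library 1 left out, an alternative chosen after seeing the data, 7 members were called at 10 mM (57.6% of all genes), 8 at 16 mM (74.0%) and 7 between the doses (57.6%). The sets were found in these same libraries, and the p-values of that fit do not allow for it. The median log2 change of the members at 16 mM was 0.39 (0.40 without that library), against 0.00 (0.01) over all genes tested. At 10 mM it was 0.39 (0.21), against 0.05 (0.00).

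**Figure D2:**
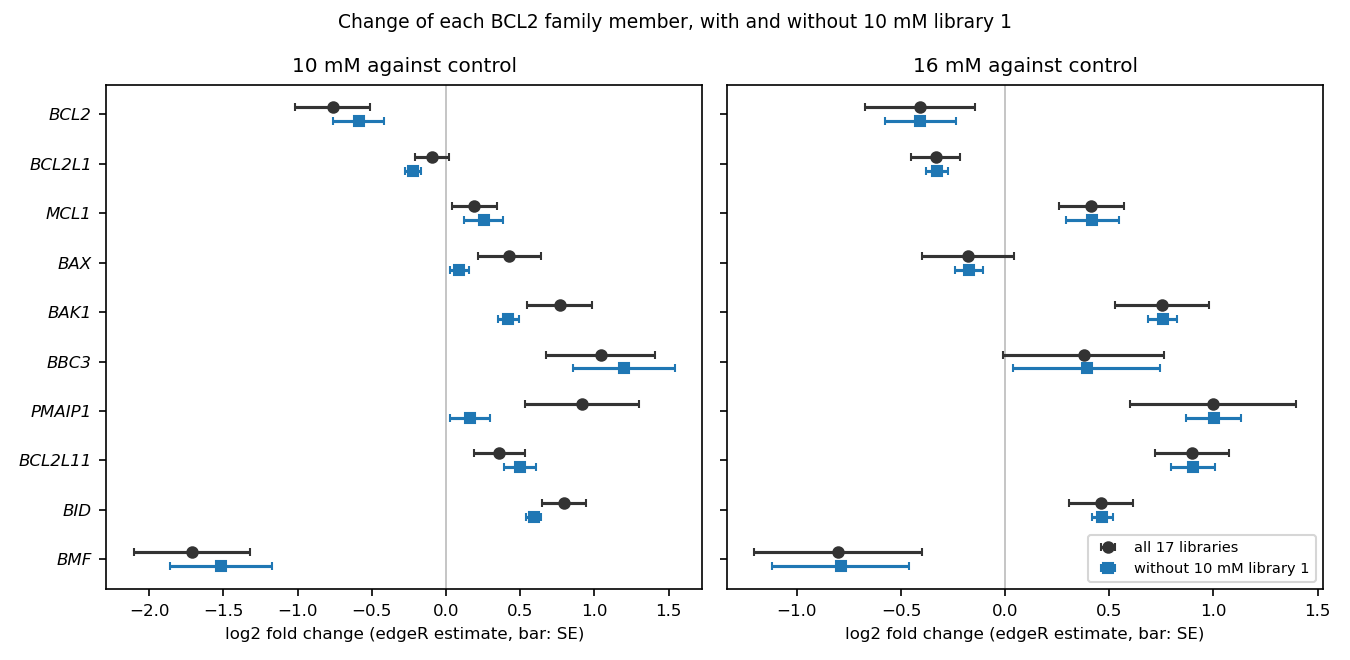
Log2 fold change of each member against control at 10 mM (left) and 16 mM (right), as estimated by edgeR with its SE, with all 17 libraries (circles) and without library 1 of the 10 mM group (squares). Leaving that library out changed the 16 mM estimates little and their SE much; PMAIP1 at 10 mM moved to 0.16 without it, against 0.92 with it.

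BCL2L11 (gene ID 10018, chr2:111120914-111168745, GRCh38.p13), which encodes the direct activator BIM, had the smallest adjusted p of the family at 16 mM. It stood at 13.0, 13.5, 13.0, 17.2 and 16.4 FPKM in the 16 mM libraries, against 7.33 to 8.78 in control with a median of 7.62. Every 16 mM library was above every control library, and libraries 4 and 5 were the highest. BCL2L11 rose by 0.90 ± 0.18 on the log2 scale (SE; edgeR adjusted p = 0.000892), a 1.86-fold change, with an adjusted p of 1.16e-06 when 10 mM library 1 was left out. At 10 mM the libraries ran from 3.29 to 12.96 FPKM with a median of 11.53. Library 1 gave the lowest value and lay below control, while the other 5 lay above it. The change at 10 mM was 0.36 ± 0.17 (edgeR adjusted p = 0.143) with all libraries and 0.50 ± 0.11 (adjusted p = 0.00114) without library 1. In these bulk samples, fewer cells of a kind and less RNA per cell cannot be told apart, and counts per gene do not separate the splice forms of BIM, for which the deposited table lists 46 transcripts.

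BID (gene ID 637, chr22:17732195-17775990), whose protein links death receptors to the mitochondria once caspase-8 has cleaved it, was higher at both doses. At 16 mM it stood at 15.5, 16.0, 16.1, 14.2 and 14.0 FPKM, against 10.27 to 12.25 in control with a median of 10.955. At 10 mM the range was 16.11 to 17.56 FPKM with a median of 16.715. No exposed library overlapped control, and library 1 of the 10 mM group (17.3 FPKM) lay among its neighbours on this scale. BID rose by 0.79 ± 0.15 (log2) at 10 mM (edgeR adjusted p = 0.00150) and by 0.46 ± 0.15 at 16 mM (adjusted p = 0.0283). With 10 mM library 1 left out these were 0.59 ± 0.05 at 10 mM (adjusted p = 2.37e-07) and 0.47 ± 0.05 at 16 mM (adjusted p = 7.07e-07). The 16 mM call was lost without control library 6 (adjusted p = 0.0542) or 16 mM library 2 (0.0518), 3 (0.0523) or 4 (0.0512), each left out in turn.

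PMAIP1 (gene ID 5366, chr18:59899996-59904305), which encodes NOXA, the partner that sends MCL1 to degradation, was the most abundant of the BH3-only members in all groups. BAD, a BH3-only gene outside the members, was higher in control, at a mean of 70.6 FPKM against 40.3 for PMAIP1. PMAIP1 stood at 63.7, 67.6, 73.1, 105.93 and 99.3 FPKM at 16 mM, against 33.5 to 49.7 in control with a median of 39.8. All 16 mM libraries were above all control libraries, and libraries 4 and 5 were well above 1 to 3. The log2 change of 1.00 ± 0.40 missed the threshold with all libraries (edgeR adjusted p = 0.0617). In the fit without 10 mM library 1 it was 1.00 ± 0.13 (adjusted p = 4.42e-06), a 2.00-fold change. At 10 mM, 5 libraries lay between 37.2 and 48.2 FPKM, within the control range, and library 1 was at 145.67 FPKM. The 10 mM change was 0.92 ± 0.38 (adjusted p = 0.1002) with that library and 0.16 ± 0.13 (adjusted p = 0.339) without it, so the estimate at this dose rests on 1 library.

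BBC3 (gene ID 27113, chr19:47220822-47232998), which encodes PUMA, an activator induced by several stress pathways, split within the exposed groups. At 16 mM, libraries 1 to 3 stood at 10.0, 8.24 and 8.44 FPKM and libraries 4 and 5 at 2.52 and 2.33, against 3.92 to 5.14 in control with a median of 4.46. At this dose libraries 1 to 3 were above every control library, and libraries 4 and 5 below every one. At 10 mM, libraries 2 to 4 stood at 13.5, 14.9 and 15.0 FPKM, libraries 5 and 6 at 5.02 and 5.73, and library 1 at 2.09. BBC3's log2 change was 0.38 ± 0.39 at 16 mM (edgeR adjusted p = 0.488) and 1.04 ± 0.37 at 10 mM (adjusted p = 0.0579), or 1.20 ± 0.34 (adjusted p = 0.00899) without 10 mM library 1. The 10 mM change also passed without 10 mM library 5 (0.0457) or 6 (0.0485), or 16 mM library 4 (0.0482) or 5 (0.0462). Between sets, the 16 mM estimates were 0.97 and 0.76 for libraries 1 to 3 and -0.76 and -0.97 for libraries 4 and 5, against control 1-3 and 4-6 in that order. The set means at 16 mM, 8.89 and 2.43 FPKM, lie on either side of the group mean of 6.31. Within matched sets the 10 mM estimates were 1.71 (2-4 against control 1-3) and 0.13 (5-6 against control 4-6).

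BMF (gene ID 90427, chr15:40087890-40108879), a BH3-only gene whose protein is bound to the cytoskeleton in unstressed cells, split within control. Control libraries 1 to 3 stood at 2.70, 1.99 and 1.74 FPKM and control libraries 4 to 6 at 6.32, 7.37 and 6.23. The 10 mM libraries ran from 0.19 (library 1) to 1.70 FPKM with a median of 1.545, below every control library in FPKM. Divided by the TMM factors, 10 mM library 5 (1.703) lay above control library 3 (1.573). The 16 mM libraries stood at 2.41, 2.48, 2.62, 2.81 and 2.40 FPKM, close to control 1 to 3, with library 4 above all of these, and far below control 4 to 6. BMF fell at 10 mM, with a log2 change of -1.71 ± 0.39 (edgeR adjusted p = 0.00606), and -1.52 ± 0.34 (adjusted p = 0.00183) without library 1. At 16 mM it was -0.80 ± 0.40 (adjusted p = 0.134), and -0.79 ± 0.33 (adjusted p = 0.0436) without 10 mM library 1. Against control 1-3 the 16 mM estimates were 0.24 and 0.43, and against control 4-6 they were -1.50 and -1.30, so the direction at 16 mM depends on which controls are used. Within matched sets it was 0.24 (1-3 against control 1-3) and -1.30 (4-5 against control 4-6), and the matched-set block gave -0.56 (adjusted p = 0.0533). The 10 mM estimate was negative against both control sets, at -0.39 to -2.15, with -0.42 and -2.12 within matched sets.

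**Figure D3:**
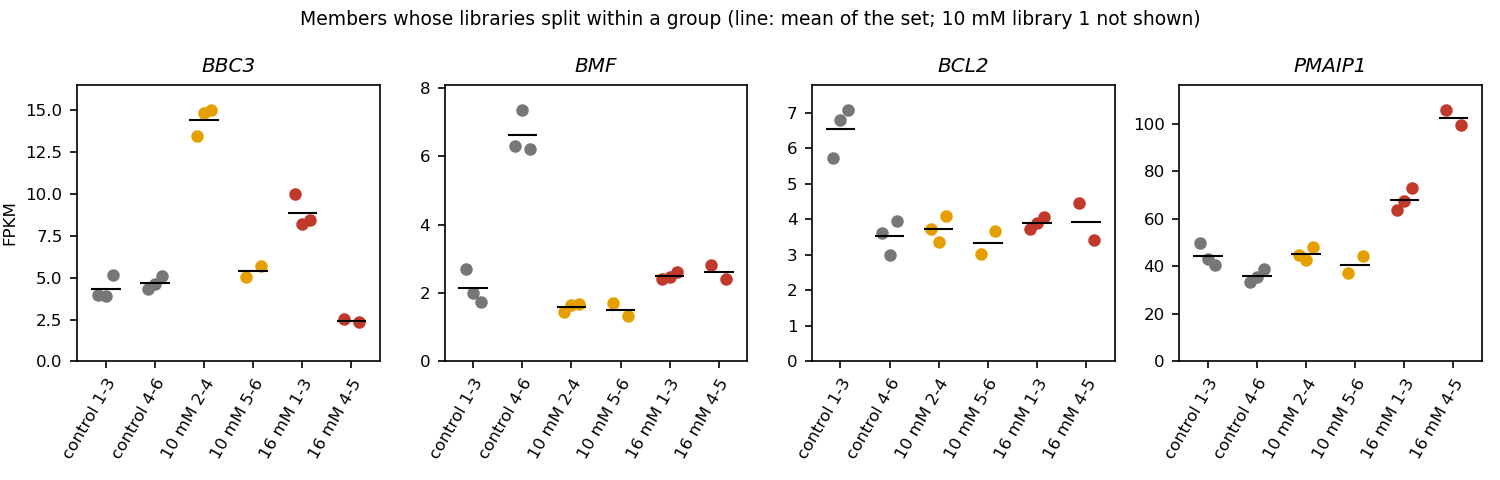
FPKM of BBC3, BMF, BCL2 and PMAIP1 in the sets of close libraries within each group (control, 10 mM, 16 mM); points are libraries, lines are set means, and library 1 of the 10 mM group is not shown. BBC3 averaged 14.5 FPKM in 10 mM libraries 2-4 and 5.38 in 5-6, whereas BMF and BCL2 split within control.

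BAK1 (gene ID 578, chr6:33572552-33580296), the effector that resides in the outer membrane, was higher at both doses. It stood at 35.7, 38.0, 34.0, 40.9 and 39.2 FPKM at 16 mM, against 20.0 to 24.6 in control with a median of 23.1. At 10 mM it ran from 28.8 to 42.5 FPKM with a median of 30.3. The exposed groups did not overlap control, and library 1 of the 10 mM group was the highest of all 17. BAK1 rose by 0.77 ± 0.22 (log2) at 10 mM (edgeR adjusted p = 0.0224) and by 0.75 ± 0.23 at 16 mM (adjusted p = 0.0160). Leaving out 10 mM library 1 gave 0.42 ± 0.07 at 10 mM (adjusted p = 0.000141) and 0.76 ± 0.07 at 16 mM (adjusted p = 7.37e-08). Both calls held with each of the 17 libraries left out in turn.

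BAX (gene ID 581, chr19:48954825-48962632), the effector that waits in the cytosol and moves to mitochondria when activated, lay on the other side of control from BAK1 at 16 mM. It stood at 122, 121, 123, 102.50 and 108 FPKM at 16 mM, against 127.22 to 172.63 in control with a median of 134.63. All 16 mM libraries were below all control libraries, though the nearest were close. At 10 mM it ran from 122 to 194 FPKM with a median of 159, overlapping control, and library 1 was again the highest. The log2 change was -0.18 ± 0.22 at 16 mM (edgeR adjusted p = 0.576), and -0.17 ± 0.07 (adjusted p = 0.0326) without 10 mM library 1. At 10 mM it was 0.43 ± 0.21 (adjusted p = 0.158), and 0.09 ± 0.07 (adjusted p = 0.288) without that library. The ratio of BAX to BAK1 in FPKM averaged 6.25 ± 0.558 over the 6 control libraries (SD), 4.82 ± 0.684 over the 6 libraries at 10 mM and 3.10 ± 0.462 over the 5 at 16 mM. No library of either dose reached the lowest control ratio of 5.72.

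BCL2L1 (gene ID 598, chr20:31664452-31724387), the source of BCL-XL and of the shorter, pro-apoptotic BCL-XS that gene-level counts cannot separate, was lower at 16 mM. It stood at 72.3, 68.1, 70.5, 62.0 and 65.6 FPKM at 16 mM, against 78.7 to 89.7 in control with a median of 87.5. At 10 mM it ran from 62.8 to 76.7 FPKM with a median of 73.0, and neither exposed group overlapped control in FPKM. Divided by the TMM factors, 10 mM libraries 5 (73.63) and 6 (71.93) lay above control library 2 (71.62). The log2 change at 16 mM was -0.33 ± 0.12 (edgeR adjusted p = 0.0375), and -0.33 ± 0.05 (adjusted p = 3.57e-05) without 10 mM library 1. That call was lost in 10 of 17 fits with 1 library left out (any of control 1 and 3 to 6, or any 16 mM library), with adjusted p up to 0.0789 and the estimate between -0.38 and -0.31. At 10 mM the change was -0.09 ± 0.11 (adjusted p = 0.573) with all libraries, and -0.22 ± 0.05 (adjusted p = 0.00245) without library 1. Library 1 was the lowest of its group in FPKM but 1.59 times the mean of the others once scaled by TMM, the normalization edgeR uses.

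MCL1 (gene ID 4170, chr1:150574558-150579610), a short-lived guardian, was the only anti-apoptotic member called higher. It stood at 188, 189, 191, 199 and 196 FPKM at 16 mM, against 127.33 to 206.19 in control with a median of 136. Control library 1 was above all 16 mM libraries, and the other 5 controls (up to 142 FPKM) were below them all. MCL1 changed by 0.41 ± 0.16 on the log2 scale (edgeR adjusted p = 0.0495), and 0.42 ± 0.13 (adjusted p = 0.00879) without 10 mM library 1. With single libraries left out the call was lost in 13 of 17 fits (control 2 to 6, 10 mM 2 to 4 and every 16 mM library), with adjusted p up to 0.112. Without control library 1 it was 0.53 (adjusted p = 0.0105). At 10 mM, library 1 had 70.51 FPKM, libraries 2 to 4 had 159.86, 149.59 and 158, and libraries 5 and 6 had 198 and 205.26. The 10 mM change was 0.19 ± 0.15 (adjusted p = 0.375), and 0.25 ± 0.13 (adjusted p = 0.122) without library 1.

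BCL2 (gene ID 596, chr18:63022901-63320280), the guardian first found at a lymphoma translocation, was scarce and split within control like BMF, but with the sets the other way round. Control libraries 1 to 3 stood at 5.74, 6.80 and 7.09 FPKM and control libraries 4 to 6 at 3.62, 3.00 and 3.95. The 10 mM libraries ran from 1.06 (library 1) to 4.11 FPKM with a median of 3.52, and the 16 mM libraries stood at 3.74, 3.89, 4.06, 4.46 and 3.42 FPKM. Both doses were below control 1 to 3 and overlapped control 4 to 6. The change at 10 mM was -0.76 ± 0.25 (log2; edgeR adjusted p = 0.0448), and -0.59 ± 0.17 (adjusted p = 0.0103) without library 1. That call was lost in 14 of 17 fits with 1 library left out, with adjusted p up to 0.106; it held without control 4, control 5 or 10 mM library 1. At 16 mM the change was -0.41 ± 0.27 (adjusted p = 0.253), and -0.41 ± 0.17 (adjusted p = 0.0444) without 10 mM library 1. Against control 1-3 the 16 mM estimates were -0.84 and -0.66, and against control 4-6 they were -0.01 and 0.17. Within matched sets BCL2 was at -0.84 and 0.17 at 16 mM and at -0.93 and -0.13 at 10 mM.

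At 16 mM, the BH3-only members held a larger share of the summed FPKM of the 10 members than in control. They made up 22.4 ± 2.68% of the summed FPKM of the 10 members (SD, n = 5, from 19.9 to 25.9%), against 14.6 ± 0.699% in control (n = 6, from 13.8 to 15.5%). Most of this was PMAIP1, which gave 12.1 to 19.2% of the family in 16 mM libraries and 7.50 to 9.34% in control libraries. Effectors gave 28.5 ± 1.91% at 16 mM and 35.0 ± 3.65% in control, with no overlap. The anti-apoptotic share was 49.2 ± 0.797% at 16 mM and 50.5 ± 3.68% in control, and the 16 mM libraries lay inside the control range. At 10 mM the BH3-only share was 18.9 ± 6.24% (n = 6), and 16.4 ± 1.70% (n = 5) without library 1, which had 31.2%. These shares follow from the member values above and were not tested separately. They also depend on which genes are counted. BAD, a BH3-only gene outside the members, averaged 70.6 FPKM in control, 68.4 at 10 mM and 47.7 at 16 mM, and is not in these sums.

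**Figure D4:**
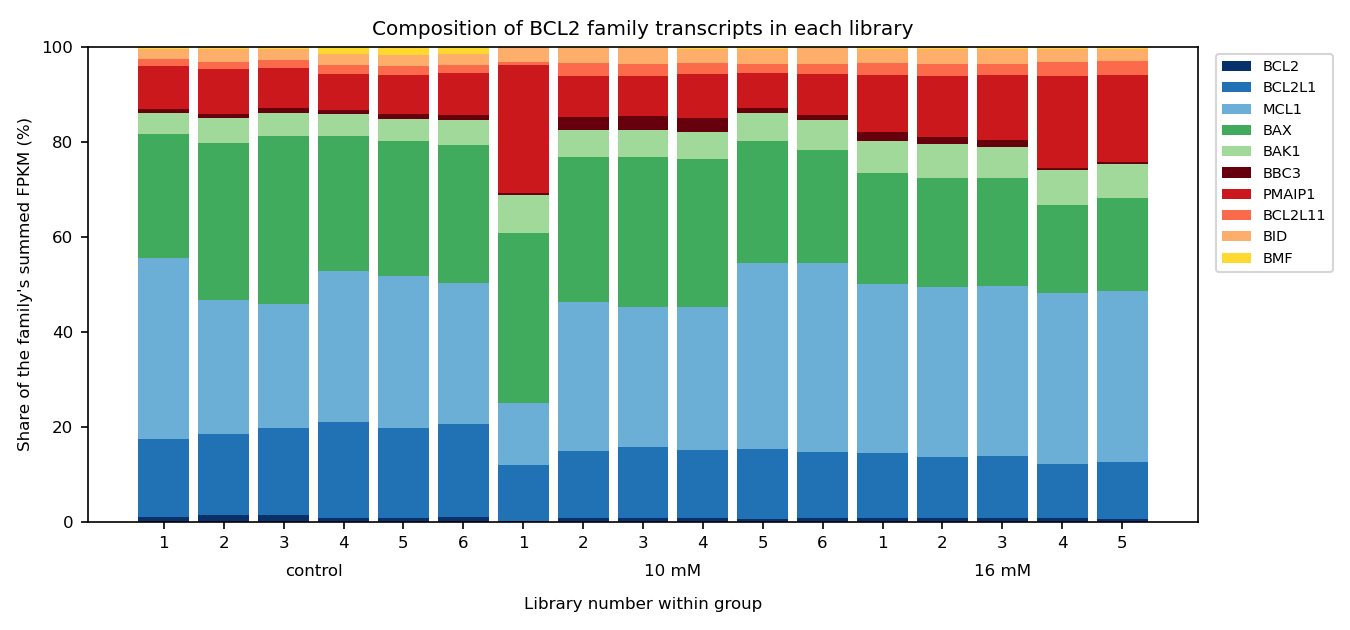
Share of the summed FPKM of the 10 members taken by each member, in every library, ordered by group (control, 10 mM, 16 mM) and library number. The red and orange BH3-only segments are widest in the 16 mM libraries and in library 1 of the 10 mM group, where PMAIP1 alone gave 27.0%.

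Ratios between partners are given as a description. MCL1 to BCL2L1 was 2.86 ± 0.245 (SD, n = 5) at 16 mM and 1.70 ± 0.322 (n = 6) in control, and every 16 mM value was above every control value. BCL2L1 to BCL2L11, a guardian over an activator, was 4.73 ± 0.875 at 16 mM and 10.9 ± 0.935 in control, with no overlap. MCL1 to PMAIP1 was 2.44 ± 0.484 at 16 mM and 3.65 ± 0.539 in control, also without overlap. At 10 mM these 3 ratios averaged 2.15, 8.53 and 3.46 in that order (n = 6). Without 10 mM library 1 they averaged 2.36, 6.42 and 4.05 (n = 5), so the mean of MCL1 to PMAIP1 was then above that of control. The ratio of BAX to BCL2, a customary index of apoptotic priming, was 29.7 ± 3.87 at 16 mM and 30.2 ± 7.81 in control, and the 16 mM values lay inside the control range. At 10 mM it was 64.8 ± 58.1, set by library 1 at 183, and 41.2 ± 5.31 (n = 5) without it.

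Between the doses, 0 of the 10 members were called by edgeR at an adjusted p under 0.05, against 14.1% of all genes. At an unadjusted p under 0.05 there were 4 (BAX, BCL2L11, BID and BMF), as there were 32.2% of all genes. The DESeq2 Wald test called 2 (BAX and BCL2L11) beside 2671 genes, limma on log2(FPKM + 1) called 1 beside 1287 genes, and voom with library weights called 6 beside 7530 genes. Leaving out 10 mM library 1 gave 4 calls, against 44.1% of all genes, with 3 higher (23.2%) and 1 lower (20.9%). PMAIP1 was then higher at 16 mM than at 10 mM by 0.84 ± 0.14 (log2; edgeR adjusted p = 0.000230), BCL2L11 by 0.41 ± 0.11 (adjusted p = 0.00696) and BAK1 by 0.34 ± 0.07 (adjusted p = 0.00148). BAX was lower, at -0.26 ± 0.07 (adjusted p = 0.00648). For PMAIP1 and BAK1 this library moved the estimate: with it the values were 0.08 ± 0.40 and -0.01 ± 0.23. BID was at -0.33 ± 0.16 (adjusted p = 0.150), or -0.12 ± 0.05 (adjusted p = 0.0733) without library 1.

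Library 1 of the 10 mM group held a family profile of its own. Its PMAIP1 was 3.35 times the mean of the other 10 mM libraries in FPKM, its BAK1 1.41 times and its BAX 1.32 times. BMF was at 0.122 times that mean, BBC3 at 0.193, BCL2L11 at 0.283, BCL2 at 0.296 and MCL1 at 0.405. BID (1.04) and BCL2L1 (0.849) were nearest to the others. Its TMM factor was 0.559, against 0.967 to 1.11 in the other libraries, and with that scaling the PMAIP1 ratio became 6.26 and the BID ratio 1.93. The direction for BCL2L1 turned with the scaling, at 1.59 under TMM.

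BAK1, BCL2L11 and PMAIP1 varied together across the 16 libraries other than 10 mM library 1. As a description, Pearson's r of log2 CPM was 0.896 for BAK1 with BCL2L11, 0.884 for BAK1 with PMAIP1 and 0.847 for PMAIP1 with BCL2L11. BCL2L1 ran opposite to BAK1, at r = -0.84. Among 9454 genes with a mean of at least 5 FPKM, the genes most like BCL2L11 were MAP3K3 (r = 0.986), FBXO21 (0.978) and ZNF436 (0.975). Those most like BAK1 included DUSP4 (0.988) and OSGIN1 (0.984), and those most like BID were POMGNT1 (0.972), FTL (0.967) and CDK5RAP1 (0.964). The 16 points share their dose groups and library sets.

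The promoters of PMAIP1, BCL2L11 and BAK1 are shown because these members all had their highest levels, leaving aside 10 mM library 1, in 16 mM libraries 4 and 5. Each is the RefSeq window from 250 bases before to 50 after the gene's start on GRCh38.p14, read 5′ to 3′ on the gene's own strand. Capitals mark 1 searched motif in each: TGACG, the core of the CRE bound by CREB and ATF factors (here on the opposite strand, so written CGTCA), in PMAIP1; GTAAACA, the FOXO motif, in BCL2L11; and GAANNTTC, the heat shock motif, in BAK1.
PMAIP1 (chr18:59899746-59900045, plus strand): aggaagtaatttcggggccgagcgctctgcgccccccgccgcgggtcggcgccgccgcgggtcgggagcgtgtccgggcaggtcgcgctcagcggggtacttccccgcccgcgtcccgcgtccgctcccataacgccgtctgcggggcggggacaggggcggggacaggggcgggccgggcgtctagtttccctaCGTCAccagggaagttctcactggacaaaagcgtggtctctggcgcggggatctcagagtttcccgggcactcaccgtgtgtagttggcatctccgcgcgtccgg
BCL2L11 (chr2:111120664-111120963, plus strand): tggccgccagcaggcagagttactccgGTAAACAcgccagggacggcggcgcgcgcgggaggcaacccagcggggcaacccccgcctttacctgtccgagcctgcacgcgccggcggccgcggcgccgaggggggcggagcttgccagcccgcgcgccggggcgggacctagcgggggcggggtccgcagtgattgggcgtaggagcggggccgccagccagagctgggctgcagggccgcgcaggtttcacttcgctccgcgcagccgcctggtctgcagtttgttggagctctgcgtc
BAK1 (chr6:33580227-33580526, minus strand): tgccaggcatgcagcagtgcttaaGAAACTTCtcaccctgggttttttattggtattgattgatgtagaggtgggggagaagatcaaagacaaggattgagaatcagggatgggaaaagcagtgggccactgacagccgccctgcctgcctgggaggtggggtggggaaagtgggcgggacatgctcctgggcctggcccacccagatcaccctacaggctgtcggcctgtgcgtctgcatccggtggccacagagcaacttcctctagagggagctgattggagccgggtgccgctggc
The BAK1 window differed most in base composition, with 58.7% G and C and 7 CpG sites, against 71.3% and 42 in PMAIP1 and 74.7% and 39 in BCL2L11.

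Across the 9 members with a RefSeq promoter entry (MCL1 had none), both strands were searched for 9 motifs and compared with 27305 promoters of the same length. TGACG was found in 5 of 9 members (PMAIP1, BMF, BCL2, BAX and BCL2L1), against 25.0% of all promoters. The FOXO motif was found in BCL2L11 alone, against 3.41% of all promoters. The heat shock motif GAANNTTC occurred in BAK1 and BMF (6.87% of all), the antioxidant response motif TGACNNNGC in BAX and BCL2L1 (13.6%), and the AP-1 motif TGANTCA in BBC3 (7.76%). NF-kB matched in BMF (10.8%). The full CRE TGACGTCA (1.98%), which contains TGACG, the C/EBP-ATF motif TGATGNAA (3.67%) and the E2F motif TTTCCCGC (1.66%) had 0 matches in the 9 members. A match describes letters in a window and says nothing of binding.

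Genes around the family, in 9 lists of 68 genes of which 62 were tested, were read in the same fit. At 16 mM 15 were called higher and 5 lower (17.3% and 18.1% of all genes were), with a median log2 change of 0.14 against 0.00 over all genes. In the fit without 10 mM library 1 the counts were 28 and 14 (33.7% and 32.2% of all genes were). Among the other guardians and effectors, BCL2L2 (BCL-W) was lower by edgeR at -0.34 ± 0.09 (adjusted p = 0.0104), although its reads can be shared with a BCL2L2-PABPN1 read-through gene. None of the 3 other BH3-only genes was called, and the 1 of smallest p, BIK, was at 1.33 ± 0.295 FPKM at 16 mM against 0.828 ± 0.353 in control (0.68, adjusted p = 0.152, or 0.0407 without 10 mM library 1). BAD, at 47.7 ± 3.43 FPKM against 70.6 ± 7.33 in control, was at -0.56 (adjusted p = 0.170, or 1.48e-06 without that library). Of 5 tested BCL2-like genes, the mitophagy receptors were called in both directions: BNIP3L (-0.53, adjusted p = 6.72e-05) and BCL2L13 (-0.38, adjusted p = 0.0294) were lower and BNIP3 (0.48, adjusted p = 0.0454) higher. BCLAF1 was also higher (0.52, adjusted p = 0.0214).

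In the apoptosome and caspase list, 3 of 8 tested genes were higher at 16 mM and 0 lower (17.3% and 18.1% of all genes were). Without 10 mM library 1 the counts were 5 and 1 (33.7% and 32.2% of all genes were). CASP8, the initiator that cleaves BID, had 28.4 ± 1.68 FPKM (SD, n = 5) at 16 mM and 17.0 ± 0.948 (n = 6) in control, a log2 change of 0.75 ± 0.09 (edgeR adjusted p = 1.14e-05). In the death receptor arm 5 of 9 were higher and 0 lower in both fits, beside the same shares of all genes. The TRAIL receptor TNFRSF10A had 17.8 ± 1.21 FPKM at 16 mM and 6.92 ± 1.22 in control (log2 1.39, adjusted p = 3.90e-06). The decoy TRAIL receptor TNFRSF10D had 45.6 ± 28.7 FPKM at 16 mM and 6.96 ± 0.605 in control (log2 2.77, adjusted p = 9.93e-05), and RIPK1 rose by 0.66 (adjusted p = 0.000418). Of 9 caspase inhibitors and their antagonists 1 was called higher and 0 lower with all libraries (17.3% and 18.1% of all genes were). It was the mitochondrial nuclease ENDOG (0.83, edgeR adjusted p = 0.0390). Without 10 mM library 1 this list had 3 higher and 2 lower calls (33.7% and 32.2% of all genes were).

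Among 7 genes for outer membrane partners, the fusion gene MFN1 fell by 0.29 on the log2 scale (edgeR adjusted p = 0.00493), while MFN2 (0.25, adjusted p = 0.0122) and the fission gene DNM1L (0.29, adjusted p = 0.0299) were higher. Of 7 tested genes of MCL1 protein turnover, 1 was called higher and 0 lower at 16 mM (17.3% and 18.1% of all genes were). It was MARCHF5, a mitochondrial ubiquitin ligase, at 39.4 ± 0.984 FPKM against 26.8 ± 2.17 in control (0.64, edgeR adjusted p = 1.57e-06). The median log2 change of this list was -0.38. Without 10 mM library 1 it had 2 higher and 3 lower calls (33.7% and 32.2% of all genes were). Of 12 transcription factors known to act on BH3-only genes, 1 was called higher and 1 lower at 16 mM, beside the same shares of all genes. The stress-induced ATF3 was the 1 called higher, at 36.2 ± 7.73 FPKM against 12.2 ± 3.76 in control (1.58, edgeR adjusted p = 0.0432). Without 10 mM library 1 this list had 6 higher and 2 lower calls, against 33.7% and 32.2% of all genes. At 10 mM the 62 genes held 9 higher and 3 lower calls (9.41% and 9.3% of all genes were), and between the doses 3 were higher at 16 mM and 0 lower, against 14.1% of all genes in either direction.

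**Figure D5:**
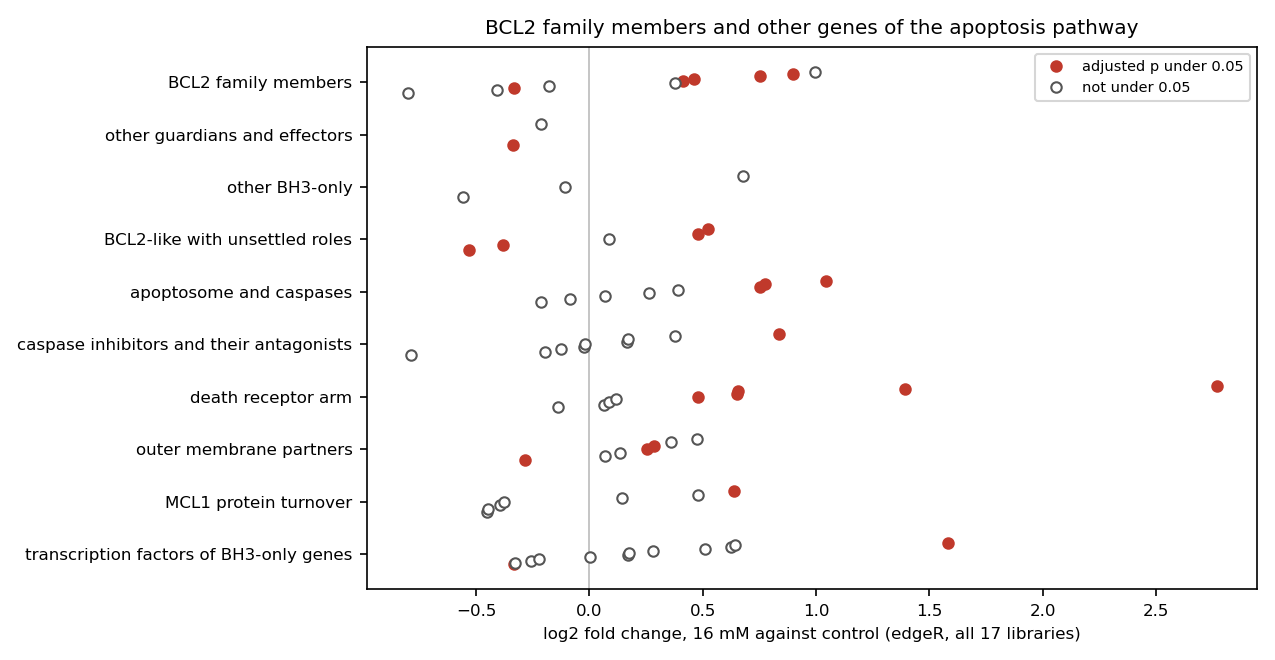
Log2 fold change of each tested gene at 16 mM against control (edgeR, all 17 libraries) for the 10 family members and for 9 lists of other apoptosis genes; filled points passed an adjusted p under 0.05. The rightmost points are TNFRSF10D at 2.77, ATF3 at 1.58 and TNFRSF10A at 1.39, and the family members lie between -0.80 and 1.00.

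The authors' deposited table of comparisons held the same direction as edgeR for all 10 members in all 3 comparisons. At a q-value under 0.05 the authors' deposited table called 4 members at 10 mM (3 higher and 1 lower), against 15.4% of its genes with a q-value (7.74% higher and 7.68% lower). They were BAK1, BBC3, BID and BMF, not the same 4 as in edgeR. BBC3 had an authors' q-value of 0.0111 and was not called by edgeR. BCL2, which edgeR called, had an authors' q-value of 0.0634. At 16 mM the authors' deposited table called 7 (5 higher and 2 lower), against 50.4% (25.0% and 25.4%). Between the doses the authors' deposited table called 1 of 10, against 9.52% of genes (4.29% and 5.23%; the member was BMF, higher at 16 mM, where edgeR's adjusted p was 0.131). In its pathway columns the authors' deposited table placed 9 of the 10 members in the KEGG apoptosis pathway (all but BMF). BAX and BAK1 share that annotation, yet in the same 16 mM libraries BAK1 lay above control and BAX below it.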

How the data were processed

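Messenger RNA of 17 BEAS-2B libraries was read from the authors' deposited table, and groups and replicate numbers came from the sample titles. The submitters' processing notes name genome build GRCh38.p13 and the tools RSEM 1.3.1, DESeq2 1.4.5, Bowtie2 2.3.4.3 and HISAT, whose version and whose roles they do not state. The deposited expected counts, headed read counts per the file headers, are not normalized, and 13.1% are not whole. The deposited FPKM, per the file headers, are scaled for transcript length and library depth and give the levels in the text. The log2 fold changes and q-values of the authors' own comparisons stand in the same deposited table. No source used here says whether counting used strand.

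Counts were rounded and tested with edgeR 4.0.16 (R 4.3.3, TMM, glmQLFit and glmQLFTest) in 1 fit over all 17 libraries, without a block, on the 12564 genes that filterByExpr kept (12545 without 10 mM library 1). Tests were two-sided. Benjamini-Hochberg adjustment ran over every gene tested, with calls made under 0.05. Each SE is the absolute log2 change divided by the root of edgeR's F. Correlations used log2 CPM. Total counts per library (15952673 to 18809241) limit precision for BMF, which had 16 to 547 counts, BBC3 (54 to 336) and BCL2 (54 to 647). The fitting code was first tested on simulated data with known changes in 50 genes per fold. At 10 mM it recovered 34% of 1.5-fold and 72% of 2-fold changes, and at 16 mM 26% and 70%. All 4-fold and 8-fold changes were recovered (100%). Changes of 2-fold or less can therefore go uncalled.

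The members, the other gene lists and the sets of close libraries were chosen with earlier results of these data known. All members are named. From each other list, up to 3 genes called at 16 mM with at least 1 FPKM were named by smallest adjusted p, or, in a list without a call, the 1 of smallest p; BNIP3 and BAD, outside that rule, were named after their values were seen. Genes most like a member were the 3 of highest r for the 3 members of smallest adjusted p at 16 mM. Some genes the rule takes are not reported here. Alternatives were a replicate block (also without 10 mM library 1), DESeq2 size factors, no filter, the DESeq2 1.42.0 Wald test, limma 3.58.1 on log2(FPKM + 1) or log2(FPKM + 0.1), fits of only the groups compared, voom with library weights, close libraries summed, kept as separate groups or, added after seeing the data, matched across groups as a block, and each library left out. TPM and the deposited strand were not used.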

Additional observations from a re-analysis of the deposited data

Results flagged for a closer look

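In 30 groups of libraries (10 members in 3 groups), the value farthest out was compared with the spread of its group by Dixon's criterion, which chance alone passes in about 1 of 20 groups. Passing values numbered 7, and 6 of them belonged to library 1 of the 10 mM group. In that library BCL2 (1.06 FPKM), BCL2L11 (3.29 FPKM) and BMF (0.19 FPKM) were far below the other 10 mM libraries. BCL2L1 (62.80 FPKM) was the lowest of them by a smaller margin, at 0.849 times the mean of the others in FPKM, and lay above that mean, at 1.59 times, once scaled by TMM. In the same library BAK1 (42.52 FPKM) and PMAIP1 (145.67 FPKM) were far above them. The voom weight of this library was 0.0124, against at least 0.278 for every other library. The remaining value was MCL1 in control library 1, at 206.19 FPKM against 127.33 to 142 in the other 5 controls.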

How the results depend on the processing

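With all libraries edgeR called 2351 genes and 4 members at 10 mM, 4439 genes and 5 members at 16 mM, and 1777 genes and 0 members between the doses. In that order, voom with library weights called 7517 genes and 9 members, 9201 and 9, and 7530 and 6. A replicate block without 10 mM library 1 called 5653 genes and 8 members, 8506 genes, and 5881 genes and 6 members. Library sets matched across groups as a block, without 10 mM library 1, an alternative chosen after seeing the data, called 7223 genes and 7 members, 9284 and 8, and 7229 and 7. Fits of only the groups compared called 1530, 7979 and 569 genes. Sums of close libraries called 246 genes and 0 members at 10 mM (2658 genes and 5 members at an unadjusted p under 0.05). At 16 mM these sums called 3480 of 13465 genes and 3 members (BAK1, PMAIP1 and BCL2L11). They called 0 genes and 0 members between the doses (2606 genes and 2 members unadjusted). DESeq2 size factors called 4427 of 12564 genes and 3 members at 16 mM. Between the doses the DESeq2 Wald test called 2671 genes and 2 members. There limma on log2(FPKM + 1), on log2(FPKM + 0.1) and without a filter called 1 member each, beside 1287, 1222 and 1318 genes. With 1 library left out, counts ran from 1633 to 5670 genes and 3 to 7 members at 10 mM, 3559 to 8271 and 2 to 9 at 16 mM, and 808 to 5537 and 0 to 4 between the doses. Counts of calls were not run for close libraries as separate groups.

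Some directions turned. Between the doses BAK1 (-0.01 in the fit of all libraries) was 0.074 with the block, 0.0029 without a filter, 0.22, 0.23 and 0.22 by limma, 0.29 by voom, 0.36 with the block and without library 1, 0.34 with matched sets as a block, and 0.34 with close libraries summed. Between sets of libraries it was 0.28, 0.13, 0.56 and 0.41, and with 1 library left out it ran from -0.091 to 0.34. PMAIP1 between the doses ran from -0.050 to 0.84 with 1 library left out. By sets, BCL2 at 16 mM was 0.17 (libraries 4-5 against control 4-6), BAX at 10 mM was -0.12 (5-6 against control 1-3), and MCL1 between the doses was -0.17 (16 mM 1-3 against 10 mM 5-6). BBC3 by sets was -0.76 and -0.97 at 16 mM and 0.62 between the doses, and BMF was 0.24 and 0.43 at 16 mM. The cause was not tested. Of 480 member results under other settings, 331 kept direction and side of the threshold; of 510 with 1 library left out, 444 did.

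Same-numbered libraries correlated at r between -0.39 and 0.41 in 16 pairs, 12 of them over 0.1, and 3 of 16 correlated best with their own number, so the numbers do not pair the samples one by one. Between sets, deviations were shared (r of 0.112 to 0.434 in 37 pairs of matched sets, control library 1 left aside, and -0.46 to -0.112 in 38 pairs of opposite sets). The replicate block called 1824, 4153 and 1304 genes, and 3, 4 and 1 members. Low counts limit BMF, BCL2 and BBC3 in 10 mM library 1, and BBC3 in 16 mM libraries 4 and 5 (55 and 54 counts).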
